A study of Homo sapiens with 6 samples.

Results

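The α-catenin and vinculin family comprises 5 genes here: CTNNA1, CTNNA2, CTNNA3, CTNNAL1 and VCL. They were chosen by symbol, and each was represented by its only transcript cluster (the array's unit of a gene) that carried that single symbol. All 5 of 5 were measured, among 22324 genes with such a cluster. Their log2 levels came from 6 Affymetrix arrays of total RNA from DLD-1 cells, a long-established human line of colorectal adenocarcinoma. The 3 Δα-Cat arrays and the 3 α-Cat arrays, each group with replicate numbers 1 to 3, came from subclones of that line kept for 96 h in 3D type I collagen (1 mg/ml), and no treatment was applied to either group. The labels name each group only as Δα-Cat or α-Cat. They do not say how the subclones were made, whether a group is 1 clone or several, or whether its arrays stem from separate cultures; the p-values therefore cover array-to-array spread alone, and part or all of that may be technical. In bulk RNA, fewer cells with a transcript and less of it per cell cannot be told apart.

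α-Catenins are actin-binding proteins of cell-cell junctions. At adherens junctions, cadherins bind β-catenin or plakoglobin, these bind α-catenin, and α-catenin connects the complex to actin filaments. Under tension α-catenin unfolds and recruits vinculin, a related protein that also strengthens the link between integrins, talin and actin at focal adhesions. CTNNA1 encodes αE-catenin, the epithelial form, CTNNA2 encodes αN-catenin of neurons, and CTNNA3 encodes αT-catenin, known from heart muscle and testis. CTNNAL1 encodes α-catulin, a more distant relative, and VCL encodes vinculin.

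RefSeq start windows (GRCh38.p14, 250 bases before to 50 after a start) were available for all 5 genes, 12 windows in all. The first listed window of each of 4 genes is shown, for the 3 genes that read above the background mark described below and for CTNNA3, which read below it, since the windows differ in base composition. Capitals mark the GC box, searched as GGGCGG and CCGCCC on both strands, overlaps included. The windows lie at chr5:138753175-138753474 (+ strand), chr9:109013450-109013749 (- strand), chr10:73997866-73998165 (+ strand) and chr10:67696146-67696445 (- strand).
CTNNA1: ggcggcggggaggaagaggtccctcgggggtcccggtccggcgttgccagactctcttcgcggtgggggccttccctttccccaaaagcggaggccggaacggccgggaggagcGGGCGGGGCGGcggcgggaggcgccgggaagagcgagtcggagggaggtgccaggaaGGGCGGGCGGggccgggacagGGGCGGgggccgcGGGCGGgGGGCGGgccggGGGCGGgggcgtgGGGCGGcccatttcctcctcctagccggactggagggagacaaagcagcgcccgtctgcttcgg
CTNNAL1: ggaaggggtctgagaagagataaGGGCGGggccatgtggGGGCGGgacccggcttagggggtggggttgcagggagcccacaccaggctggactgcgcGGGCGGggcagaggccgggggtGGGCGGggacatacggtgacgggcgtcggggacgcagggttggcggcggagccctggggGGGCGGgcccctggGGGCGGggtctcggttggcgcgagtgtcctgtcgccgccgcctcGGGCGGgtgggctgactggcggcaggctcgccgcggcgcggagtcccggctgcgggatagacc
VCL: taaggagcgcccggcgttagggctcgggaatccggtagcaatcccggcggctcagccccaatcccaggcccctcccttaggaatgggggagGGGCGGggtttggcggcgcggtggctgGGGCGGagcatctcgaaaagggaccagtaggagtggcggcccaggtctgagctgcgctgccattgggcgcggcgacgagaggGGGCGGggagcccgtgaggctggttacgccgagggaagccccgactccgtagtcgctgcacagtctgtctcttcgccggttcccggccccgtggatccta
CTNNA3: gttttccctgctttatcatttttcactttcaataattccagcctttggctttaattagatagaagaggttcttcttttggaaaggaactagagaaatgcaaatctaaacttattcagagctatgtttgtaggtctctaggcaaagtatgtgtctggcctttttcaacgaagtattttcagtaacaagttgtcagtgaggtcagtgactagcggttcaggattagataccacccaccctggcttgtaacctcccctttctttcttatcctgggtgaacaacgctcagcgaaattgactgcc

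The CTNNA1 window held 37 CpG dinucleotides and 9 GC boxes, the CTNNAL1 window 33 and 7, and the VCL window 30 and 3. The CTNNA3 window held 4 CpG dinucleotides and 0 GC boxes. It lies inside the gene, which begins at 67763594 on the - strand, whereas the other windows shown lie where their genes begin. Over all 35116 RefSeq windows of this length the median was 14 CpG, and 45.0% held a GC box. CTNNA1 has 4 listed starts. The second, with 44 CpG and 4 GC boxes, resembles the first, while the third and the fourth, inside the gene, held 3 and 8 CpG and 0 GC boxes. CTNNA2, which read below the mark like CTNNA3, also has 4 starts. The second held 43 CpG and 3 GC boxes, and the others 2 or 3 CpG and 0 GC boxes. Of the 12 member windows, 5 held a GC box. A transcript cluster summarises probes along a gene, so the array values do not tell which start was used.

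The label was checked first on CTNNA1. Its log2 level was 6.55, 6.52 and 6.41 on the Δα-Cat arrays, against 7.79, 7.68 and 7.71 on the α-Cat arrays. All 3 Δα-Cat values lay below all 3 α-Cat values, and the gap was far wider than the spread within either group. The mean was 6.50 ± 0.07 in Δα-Cat and 7.73 ± 0.06 in α-Cat (SD, n = 3 each), and CTNNA1 fell by 1.23 on the log2 scale (SE 0.06, 95% interval -1.38 to -1.09; limma, adjusted p = 0.00212). On the linear scale the Δα-Cat signal was 42.5% of the α-Cat signal, with an interval from 38.4% to 47.1%. It is a share of array signal and need not equal the share of RNA. Among 22324 genes this was the 10th lowest change and the 6th smallest p. Which part of the gene, if any, differs between the subclones is not in the labels, and the level of αE-catenin protein was not measured.

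CTNNA1 was the only member called at an adjusted p under 0.05. Of the 5 members, 1 was called lower and 0 higher. Over all genes, 0.623% were called in either direction and 0.251% were called lower. The median change over the 5 members was -0.03, against -0.00041 over all genes. With 5 members this median is the value of CTNNA2, which read below the background mark, so it does not describe the family.

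**Figure D1:**
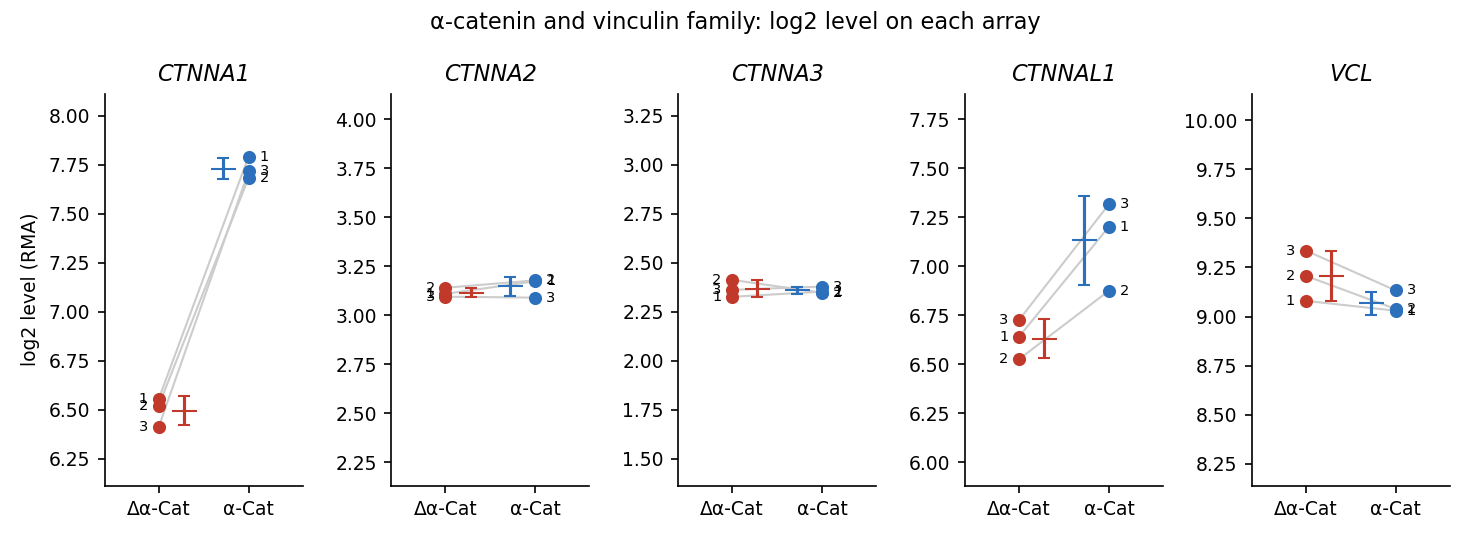
Log2 level (RMA, y axis) of each member on every array, with Δα-Cat in red on the left and α-Cat in blue on the right. Numbers are replicate numbers, grey lines join arrays of the same number, the bars beside the points are mean ± SD (n = 3), and every panel spans the same log2 range. The groups lie apart for CTNNA1 and CTNNAL1, and overlap for CTNNA2, CTNNA3 and VCL.

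The question of compensation was whether a paralog stood higher where CTNNA1 was lower. CTNNA2, the neuronal α-catenin, read 3.11, 3.14 and 3.10 in Δα-Cat and 3.17, 3.18 and 3.09 in α-Cat. The groups overlapped. Its change was -0.03 (SE 0.05; limma, adjusted p = 0.924), and the 95% interval ran from 0.896-fold to 1.07-fold. CTNNA3, the αT-catenin gene, read 2.33, 2.41 and 2.36 in Δα-Cat and 2.35, 2.35 and 2.38 in α-Cat. These values overlapped as well, within a narrower span than those of any other member. The change of CTNNA3 was 0.0075 (SE 0.05; limma, adjusted p = 0.985), with an interval from 0.923-fold to 1.09-fold. No rise of either paralog was detectable, and the upper ends of the intervals for the array signal were 1.07-fold and 1.09-fold.

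Both paralogs sat at a level where an array tells little about RNA. No detection calls were used, so the 366 measured olfactory receptor genes, which colon epithelium is not known to use broadly, served as a mark. Their median log2 level was 2.59 and their 95th percentile 4.43. CTNNA2 and CTNNA3 lay below that percentile in both groups, and 269 and 133 of the 366 receptor genes lay below them. CTNNA1, CTNNAL1 and VCL lay above it in both groups. So did many other genes, since 14901 of all 22324 lay above it in either group. The mean of CTNNA1 in Δα-Cat, 6.50, was 2.06 above it. TYROBP, the highest of the 33 markers of other cell types described below, averaged 6.49 in Δα-Cat and 6.43 in α-Cat. The level of 6.50 alone therefore does not show remaining CTNNA1 RNA. Levels of different genes come from different probes, so the members were not ranked against each other. Their place among the receptor genes is for the same reason only a rough guide.

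**Figure D2:**
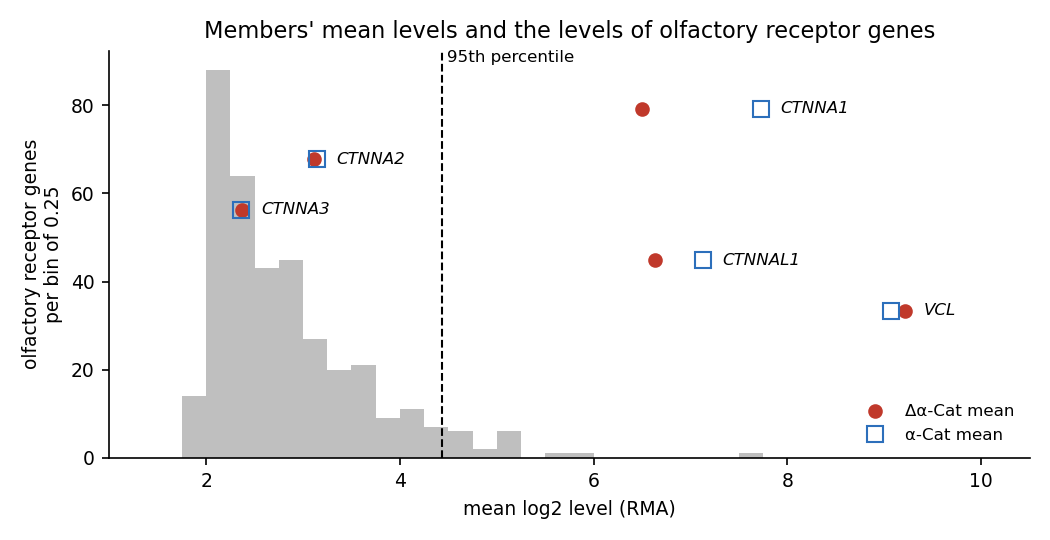
Mean log2 level (x axis) of each member in Δα-Cat (filled circles) and α-Cat (open squares), over a histogram of the mean levels of 366 olfactory receptor genes (y axis, genes per bin). The height of a member's symbols has no meaning. The dashed line is the 95th percentile of the receptor genes, 4.43; CTNNA2 and CTNNA3 lie left of it and the other 3 members right of it.

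CTNNAL1, the α-catulin gene, was the other member whose groups did not overlap. It read 6.64, 6.53 and 6.73 in Δα-Cat and 7.20, 6.88 and 7.32 in α-Cat. The highest Δα-Cat array thus lay only 0.15 below the lowest α-Cat array, replicate 2, and replicate 2 was the lowest array of both groups. The mean was 6.63 ± 0.10 in Δα-Cat and 7.13 ± 0.23 in α-Cat (SD, n = 3 each). The change of -0.50 (SE 0.12, 95% interval -0.78 to -0.22) did not pass the test over all clusters (unadjusted p = 0.00388; limma, adjusted p = 0.198). It was the 107th lowest change of 22324 genes but had only the 765th smallest p. Groups apart with Δα-Cat lower were seen for 2 of the 5 members and for 10.0% of all genes. Without α-Cat replicate 2 the change was -0.63 (adjusted p = 0.116), and without α-Cat replicate 3 it was -0.41 (adjusted p = 0.428).

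VCL read 9.08, 9.21 and 9.34 in Δα-Cat, against 9.03, 9.04 and 9.13 in α-Cat. The groups overlapped, since α-Cat replicate 3 lay above Δα-Cat replicate 1. The mean was 9.21 ± 0.13 in Δα-Cat and 9.07 ± 0.06 in α-Cat (SD, n = 3 each). The change was 0.14 (SE 0.08; limma, adjusted p = 0.642), and its interval ran from 0.971-fold to 1.25-fold. In the main fit a change of the VCL signal of more than 1.25-fold upward thus lay outside the interval, whereas a smaller one did not. Single arrays weighed on the change, which was 0.21 without Δα-Cat replicate 1 and 0.077 without Δα-Cat replicate 3. The log2 interval reached 0.32 in the main fit. Without Δα-Cat replicate 1 it ran from 0.03 to 0.38 (limma, adjusted p = 0.38). Its upper end was 0.39 without α-Cat replicate 3 and 0.25 without Δα-Cat replicate 3.

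Arrays with the same replicate number were also set side by side. The Δα-Cat minus α-Cat difference for numbers 1, 2 and 3 was -1.24, -1.16 and -1.30 for CTNNA1 and -0.56, -0.35 and -0.59 for CTNNAL1. For VCL it was 0.05, 0.17 and 0.20. All 3 differences had the same sign for each of these genes. The share of all genes with such agreement was not counted. For VCL the fit with the replicate number as a block did not pass (limma, adjusted p = 0.511). For CTNNA2 they were -0.06, -0.04 and 0.0050, and for CTNNA3 -0.03, 0.07 and -0.02, so the sign differed among the numbers.

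**Figure D3:**
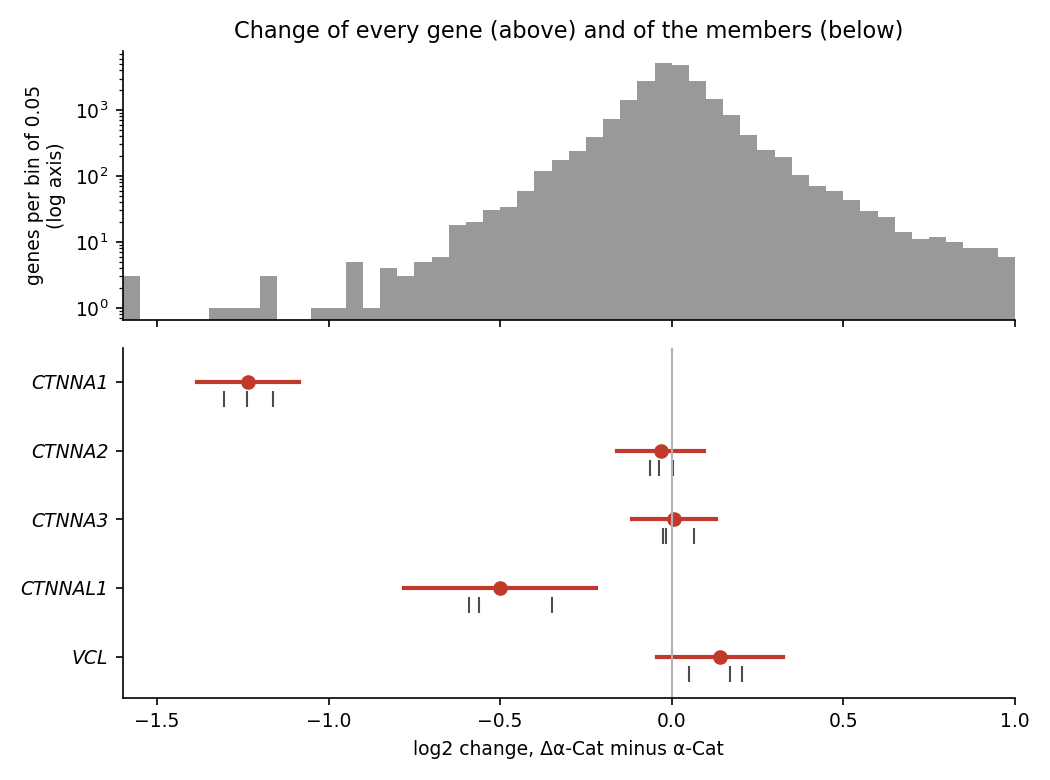
Below, the log2 change of each member (x axis, Δα-Cat minus α-Cat) with its 95% interval from limma, and, as short vertical marks, the 3 differences between same-numbered arrays. Above, on the same x axis, the number of genes per bin (log axis), without the genes beyond the ends of the axis. CTNNA1 at -1.23 lies in the sparse left tail, CTNNAL1 at -0.50 at its edge, and the other 3 members within the bulk.

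The gap between CTNNA1 and its relatives was also measured within arrays, where a shift of a whole array drops out. CTNNA1 minus CTNNAL1 was -0.09, -0.0058 and -0.32 in Δα-Cat, against 0.59, 0.81 and 0.40 in α-Cat, a difference of -0.73. CTNNA1 minus VCL was -2.53, -2.69 and -2.93 in Δα-Cat and -1.24, -1.36 and -1.42 in α-Cat, a difference of -1.38. The groups did not overlap in either comparison. The differences against CTNNA2 and CTNNA3, -1.20 and -1.24, add nothing to the change of CTNNA1 itself, since both genes lay below the mark. Each of these 4 comparisons gave a two-sided exact permutation p of 0.1, which is the smallest that 3 arrays against 3 allow, and 0.1 after adjustment over the 4.

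The genes inside and beside the members on the chromosome were examined next, in the gene order of RefSeq. Each α-catenin gene holds a gene of the LRRTM family of leucine-rich synaptic adhesion proteins. LRRTM2, inside CTNNA1, averaged 2.41 in Δα-Cat and 2.48 in α-Cat (change -0.07, SE 0.07; limma, adjusted p = 0.831). LRRTM1, inside CTNNA2, had a change of -0.05, and LRRTM3, inside CTNNA3, of 0.04. LRRTM2 and LRRTM3 lay below the olfactory receptor mark in both groups, and LRRTM1 above it. The flanking genes of CTNNA1 are HSPA9, a mitochondrial chaperone, and SIL1, a nucleotide exchange factor of the endoplasmic reticulum. HSPA9 averaged 9.92 in Δα-Cat and 9.89 in α-Cat (change 0.02, SE 0.07), and SIL1 5.92 in Δα-Cat and 5.99 in α-Cat (change -0.06, SE 0.06). Neither passed the test (limma, adjusted p = 0.965 and 0.851). Beside CTNNAL1, ABITRAM, which overlaps it, had a change of 0.02 and TMEM245 of 0.13. Beside VCL, AP3M1, which overlaps it, had a change of -0.14, and PLAU, the urokinase gene, of -0.17. Of 35 genes inside or beside the members 15 were measured, and 0 were called. Over all genes 0.623% were called, so a count of 0 among 15 says little about these loci.

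**Figure D4:**
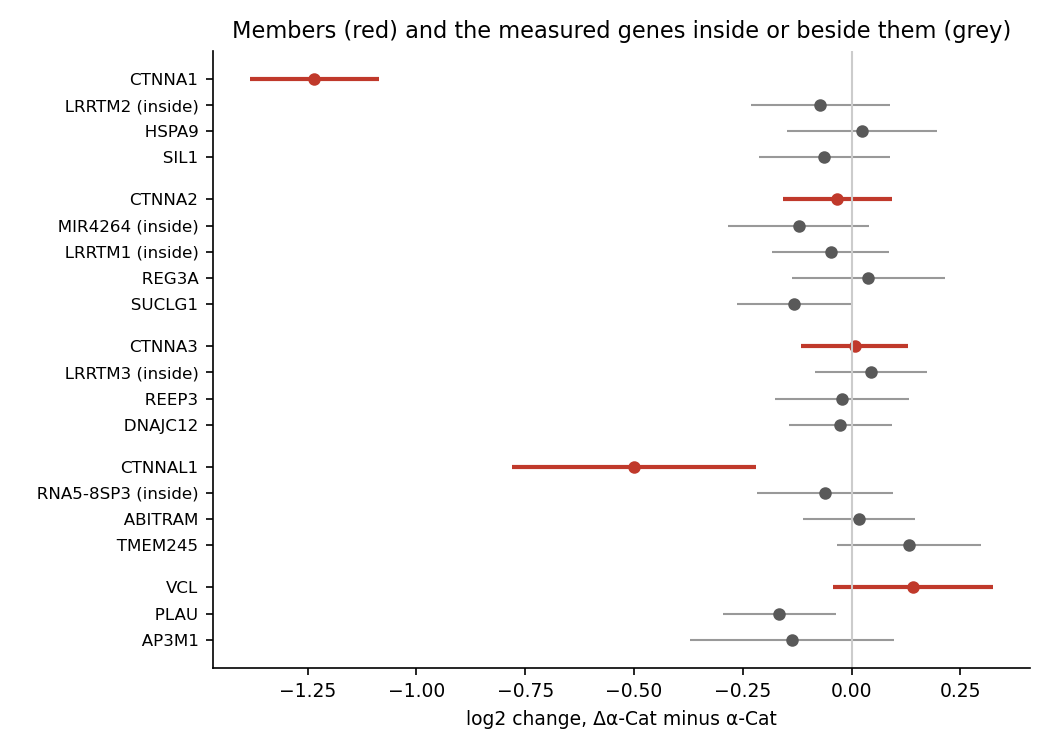
Log2 change (x axis, Δα-Cat minus α-Cat) with 95% interval for each member in red and, in grey below it, for the measured genes that lie inside it or flank it. The 3 measured genes at the CTNNA1 locus lie between -0.07 and 0.02, while CTNNA1 lies at -1.23.

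Partners of the members were taken in 4 lists of 49 genes, of which 44 were measured. Among them 1 gene, NECTIN3, was called higher, 0 were called lower and 43 did not pass. The share of all genes called in either direction was the 0.623% given above. The median change over the 44 was 0.05.

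Of the cadherins, catenins and nectins at adherens junctions, 12 of 14 were measured, 1 was called higher, 0 were called lower, and the median change was 0.07. NECTIN3, an immunoglobulin-like adhesion molecule that joins actin through afadin, read on average 5.37 in Δα-Cat and 4.28 in α-Cat (change 1.08, SE 0.09; limma, adjusted p = 0.00778). Its α-Cat mean lay below the olfactory receptor mark. CDH17, the liver-intestine cadherin, which does not bind catenins, averaged 10.30 in Δα-Cat and 9.58 in α-Cat (change 0.72, SE 0.13; limma, adjusted p = 0.101). E-cadherin (CDH1) had a change of 0.26 and NECTIN4 of 0.24 (limma, adjusted p = 0.313 and 0.43). CTNNB1 and JUP, the proteins to which α-catenin binds directly, had changes of 0.06 and 0.07. They were named for that role, outside the naming rule and with their values known.

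Of the actin linkers that bind α-catenin, 14 of 15 were measured and 0 were called (9 had a positive and 5 a negative change, median 0.05). SHROOM3, an actin-binding protein of apical junctions, had the largest change in size, 0.33 (SE 0.09; limma, adjusted p = 0.255). ACTN1, an α-actinin, had a change of 0.26, TJP1 (ZO-1) of 0.24 and ENAH, an actin filament elongation factor, of -0.23 (limma, adjusted p = 0.162, 0.178 and 0.213). Of the vinculin partners, 18 of 20 were measured and 0 were called, with a median change of -0.0067. ACTN1 and ENAH belong to this list as well, and TNS3, a tensin, had a change of -0.16 and ZYX, zyxin, of -0.12. TLN1 (talin) had a change of -0.05, named for its role as the main vinculin activator and outside the naming rule. Of the 6 genes listed with α-catulin, 6 were measured and 0 called. AKAP13, an A-kinase anchoring protein, had a change of 0.16, ILK, a kinase of integrin adhesions, of 0.10 and IKBKB, a kinase of NF-κB signalling, of 0.05. Over the 44 measured partners, 9 had an unadjusted p under 0.05, a share to be read against 13.1% of all genes, and with the replicate number as a block 1 was called.

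**Figure D5:**
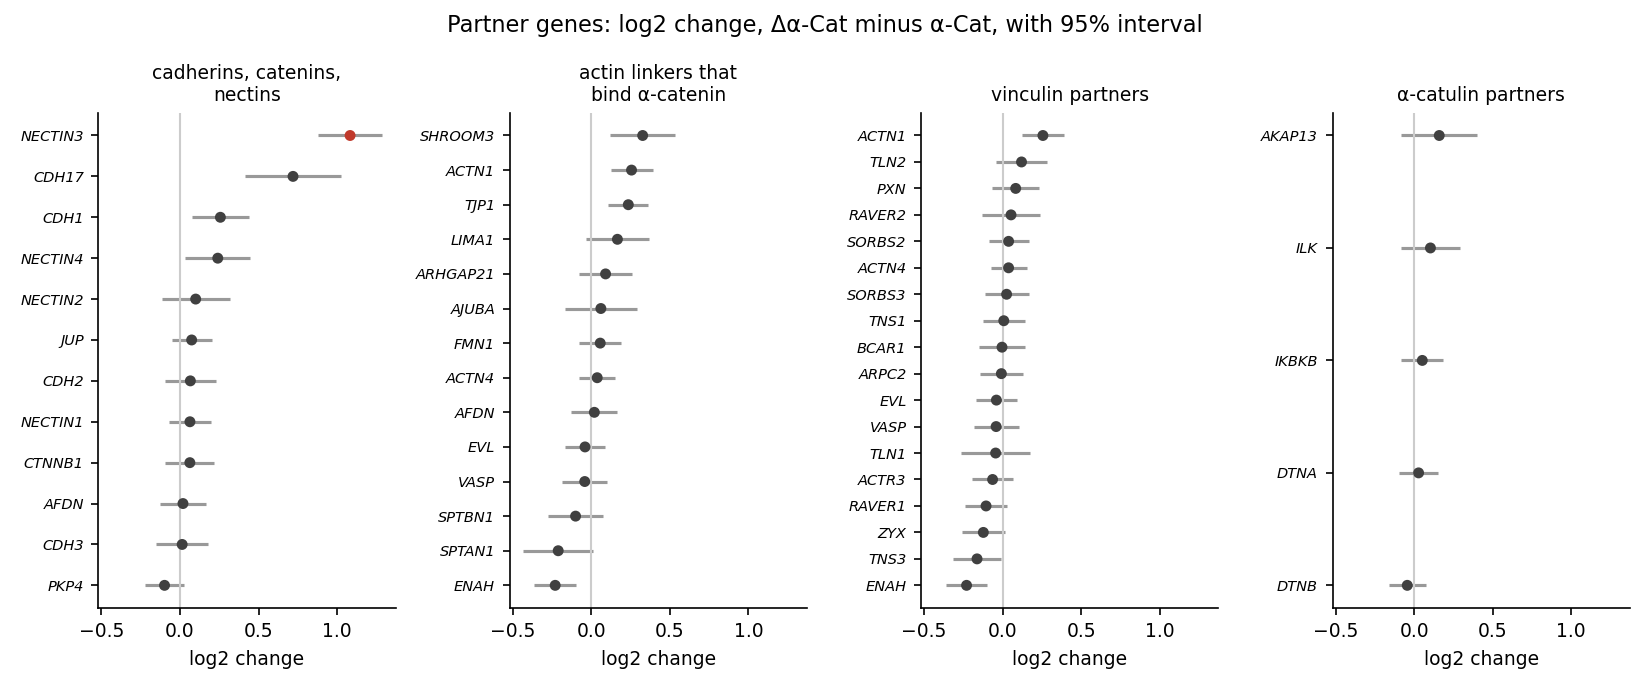
Log2 change (x axis, Δα-Cat minus α-Cat) with 95% interval for measured genes of the 4 partner lists, without 1 of the α-catulin list, sorted within each list; a gene in more than 1 list is drawn in each. NECTIN3, in red, is the called gene at 1.08, and CDH17 at 0.72 is the next highest.

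Patterns most like those of the members were sought among genes whose SD over the 6 arrays was at least 0.3. With 6 arrays in 2 groups, a high Pearson r can record the group difference, a trend among the arrays of a group, or both. It is given as a description. For CTNNA1, r was highest with BIK, a pro-apoptotic BH3 protein (0.997), PLCB4, a phospholipase C (0.997), and HLTF, a helicase-like chromatin factor (0.994), among 300 genes. It was lowest with KLK7, a serine protease (-0.999), SLPI, a protease inhibitor (-0.998), and KRT20, an intestinal keratin (-0.998). In that order, the changes were -0.86, -0.95 and -1.58, then 1.69, 1.57 and 4.75. All 6 were called (limma, adjusted p from 0.000832 to 0.00329) and their groups did not overlap. For this set r thus mainly restates the group difference. HLTF lay below the olfactory receptor mark in both groups, and KLK7 and KRT20 lay below it in α-Cat. For CTNNAL1, r was highest with CHML (0.977), FAR2 (0.965) and IL18 (0.964) and lowest with ID3 (-0.987), CDH17 (-0.979) and CST1 (-0.976). FAR2, a fatty acyl reductase, had a change of -0.59 (limma, adjusted p = 0.0495), or 0.0569 as the adjusted p of the fit with the replicate block, and the other 5 of that set did not pass. Among those 5, ID3 and CST1 were called with the block (limma, adjusted p = 0.039 and 0.0306, against 0.123 and 0.143 without it). For VCL, r was highest with CD68 (0.983), TXNIP (0.937) and SMCHD1 (0.935) and lowest with CDC20, an activator of the anaphase-promoting complex (-0.960), its pseudogene CDC20P1 (-0.960) and GPI (-0.945). CDC20 and CDC20P1 are near-identical copies whose probes may not tell them apart, and none of these 6 passed the test. The groups of VCL overlapped, and its r also follows a trend within Δα-Cat. There replicates 1, 2 and 3 read 9.08, 9.21 and 9.34 for VCL, 6.44, 6.80 and 7.61 for CD68, and 8.93, 8.65 and 8.38 for CDC20.

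The cell type was checked on fixed markers. All 14 epithelial and colorectal markers were measured, 14 lay above the olfactory receptor mark in Δα-Cat and 13 in α-Cat, the exception being KRT20. KRT20 rose by 4.75 on the log2 scale (SE 0.19; limma, adjusted p = 0.000832), and the other 13 epithelial markers did not pass. Among 33 measured markers of fibroblasts, leukocytes, endothelium, neurons and heart muscle, 0 were called, 0 had an unadjusted p under 0.05, and the largest change in size was 0.16. Of these 33, 20 lay above the mark in both groups: 4 of 7 for fibroblasts, 5 of 7 for leukocytes, 3 of 6 for endothelium, 3 of 7 for neurons and 5 of 6 for heart muscle. PTPRC, the common leukocyte antigen, averaged 2.29 in Δα-Cat and 2.30 in α-Cat, and COL1A1, a fibroblast collagen, 6.15 in Δα-Cat and 6.16 in α-Cat. A level above the mark therefore does not show that a gene is expressed in these cells. Array medians of the log2 level lay between 4.02 and 4.07, and correlations between arrays over all clusters from 0.993 to 0.996.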

How the data were processed

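Total RNA of 6 samples was measured on Affymetrix arrays. The authors made the values with Affymetrix Expression Console and RMA, per the submitters' processing notes; software versions are not given in the sources used here. Their scale is not stated. The deposited values were taken as log2, since they lay between 1.26 and 14.24. Of 70513 rows, 4987 held a value without a decimal point and were left out, which leaves 65526 clusters. A second table with 6 columns that match no sample label was not used.

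Symbols came from the platform annotation, updated through RefSeq (GRCh38.p14); where several single-symbol clusters named a gene, the one of highest mean was kept. Differences, Δα-Cat minus α-Cat, were fitted over all 6 arrays and all 65526 clusters with limma 3.58.1 in R 4.3.3 (lmFit, eBayes, no covariate), with Benjamini-Hochberg adjustment over all clusters and calls at an adjusted p under 0.05. The fit was also run on simulated arrays with independent noise and no link between same-numbered arrays. That run therefore does not bear on pairing. Residuals of same-numbered arrays correlated at 0.219, 0.214 and 0.128, so the numbers were treated as possible pairs and a fit with the replicate block was run (the meaning of a number is not labelled). Other alternatives were cyclic loess, median centring, trended and robust eBayes, 2 restrictions of the clusters tested, and leaving out each array. Named genes were the members, genes inside or flanking them, the called genes and the 4 with the largest changes of each partner list, and the 3 genes of highest and lowest r for CTNNA1, CTNNAL1 and VCL, without uncharacterised loci and small RNAs. The members, lists and rules were chosen with earlier results of these data known. Python 3.11.15, numpy 2.4.6, pandas 2.3.3 and matplotlib 3.10.9 were used. 1 gene of the α-catulin list is counted but not reported here. The number of arrays limits the precision.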

Additional observations from a re-analysis of the deposited data

How the results depend on the processing

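CTNNA1 stayed lower and called in all 12 alternatives run, with changes from -1.26 to -1.19 and adjusted p from 0.000256 to 0.0237. With the replicate block its adjusted p was 0.00765, that of CTNNAL1 0.0925, and no member's call changed; 95 genes were called with the block. CTNNAL1 was negative in 12 of 12 alternatives (-0.63 to -0.41, adjusted p 0.0767 to 0.493) and VCL positive in 12 of 12 (0.077 to 0.21, adjusted p 0.38 to 0.851), and neither was called in any. CTNNA2 was negative in 11 of 11 (-0.06 to -0.02). CTNNA3 was positive in 9 of 11; it was -0.0060 after cyclic loess and ranged from -0.015 to 0.028 when 1 array was left out. The dim-cluster filter removed CTNNA2 and CTNNA3, and averaging several rows of a gene was not run because each member has 1. The genes called numbered 139, but 301 with the filter on dim clusters and 656 with single-symbol clusters only. Both restrictions adjust over fewer clusters and also change the SE, which for CTNNA1 was 0.060 and 0.056, against 0.063 in the main fit. Why the counts rose was not tested. Without 1 array, 21 to 80 genes were called (29 without Δα-Cat replicate 2 or 3, 80 without Δα-Cat replicate 1, 21, 36 and 24 without α-Cat replicates 1, 2 and 3). The clusters called numbered 224, with 458 and 662 under those 2 restrictions and 29 to 120 without 1 array. Within arrays, differences stayed negative without any 1 array, from -0.83 to -0.63 for CTNNA1 minus CTNNAL1 and from -1.47 to -1.27 for CTNNA1 minus VCL.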
